A study of Mus musculus with 9 samples.

Results

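XBP1 belongs to the transcription factors of the unfolded protein response, the programme by which a cell enlarges the protein folding and secretory capacity of its endoplasmic reticulum. Its active form is made when IRE1, a sensor in the endoplasmic reticulum membrane, splices its messenger RNA. Hepatocytes secrete most plasma proteins and rely on this pathway. Chromatin immunoprecipitation and sequencing (ChIP-seq) shows where XBP1, or another protein bound by the antibody, sits on the genome, as regions of enriched reads called peaks.

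The sites described here are regions of mouse liver chromatin with an XBP1 peak in all 5 unsilenced peak lists and a further peak in liver treated with a short hairpin RNA against XBP1 (shXBP1) and taken 6 h after partial hepatectomy. Peaks of the 5 unsilenced lists that overlapped by at least 1 bp were merged, which gave 28099 regions. Of these, 1859 (6.62%) held a peak in each of the 5 lists and are called constitutive. A peak of the silenced 6 h list overlapped 1534 of them (82.5%, 95% Clopper-Pearson interval 80.7 to 84.2%), and these 1534 kept sites, 5.46% of all merged regions, are the subject below. The other 325 constitutive regions are called lost sites. Among all 28099 merged regions, 14.9% overlapped a silenced 6 h peak. "Kept" means only that a peak was still called. The sites were selected on the presence of peaks in these 6 lists, so presence and scores there are a description and carry no test.

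All livers came from wildtype C57Bl6-J mice, and the operated mice were 8 weeks old at surgery. The silenced livers were basal (basal_shXBP1), 6 h after partial hepatectomy (PH6h_shXBP1) and 48 h after it (PH48h_shXBP1), each taken with XBP1 silenced for 7 days. The unsilenced livers were basal, 6 h and 48 h after partial hepatectomy (PH6h, PH48h), and 6 h and 48 h after a sham operation that exposed the liver without removing tissue (sham6h, sham48h). The hairpin was delivered by tail vein injection of an adenovirus after clodronate liposomes, agents that deplete phagocytes. The labels name a control virus against LacZ but do not say which livers, if any, received it, so silencing cannot be told apart from virus and liposomes. Nor do they tell whether the chromatin of a library was pooled over animals. Each condition had 1 library, so the spread between animals is unknown and no p-value is given. Intervals cover counting error only, and regions of a library are not independent samples. In bulk tissue, fewer cells carrying XBP1 at a site and less XBP1 per cell cannot be told apart. Neither the level of XBP1 nor the number of reads was measured in the files used here, so the efficiency of silencing and the depth are unknown.

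The lists differed widely in length, from 102 peaks in PH48h_shXBP1 and 177 in basal_shXBP1 to 23087 in sham6h, with 4325 in PH6h_shXBP1 and 2482 in the basal list. The antibody enrichment is given by a score per peak, the authors' own value, whose scale is not stated. Scores were used to rank or filter peaks within a list. Scores of several lists are given side by side as each list's own values, and any order between lists is read from ranks. Positions are in the mouse build mm9, counted from 1. Sites are named by position alone, since a genome and gene annotation of that build were not used here. For the same reason no DNA sequence, motif or gene is given.

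Regions found in more unsilenced states more often held a peak after silencing. The share with a silenced 6 h peak was 82.5% for regions in 5 unsilenced lists, 49.9% (47.6 to 52.2%) for those in 4, 23.8% for those in 3, 7.10% for those in 2 and 1.36% for those in 1. Among regions in exactly 4 lists, 1443 lacked only the basal peak, and 741 of these (51.4%, 48.7 to 54.0%) held a silenced 6 h peak. Another 287 lacked only the sham48h peak and 124 of them (43.2%, 37.4 to 49.2%) were kept. A further 152 lacked only the PH48h peak and 77 of them (50.7%, 42.4 to 58.9%) were kept. These shares come from the lists that defined the sites, so they are a description, and the differences between them were not tested. The 6 regions that lacked only the PH6h peak included 0 with a silenced 6 h peak. Within the constitutive regions, the kept share followed the score. It was 99.4% in the highest quartile by PH6h score and 50.5% in the lowest. By basal score it was 95.04% in the highest quartile and 70.5% in the lowest. The plot of kept shares gives the other lists.

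**Figure D1:**
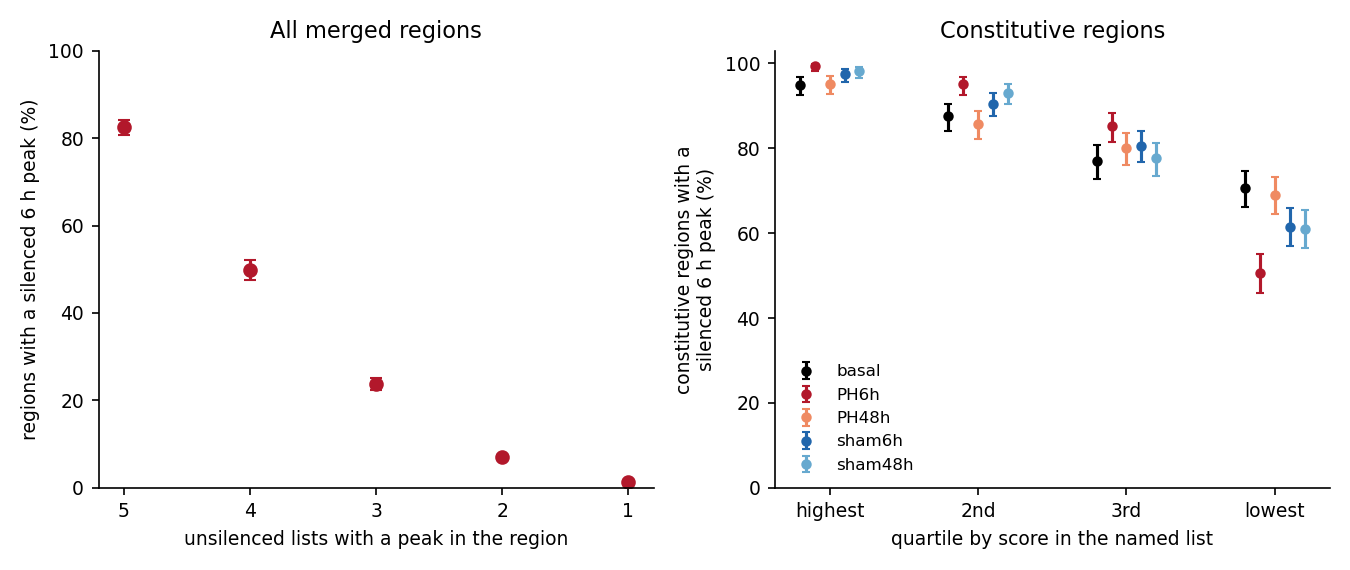
Left, share of merged regions overlapping a PH6h_shXBP1 peak (y axis, %) by the number of unsilenced lists with a peak (x axis). Right, the same share (%) among the 1859 constitutive regions by quartile of score in each of the 5 unsilenced lists. Bars are 95% Clopper-Pearson intervals; the share falls from 82.5% in 5 lists to 1.36% in 1 list, and from 99.4% to 50.5% over the PH6h quartiles.

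Kept sites made up nearly all of the strongest XBP1 peaks of every state. Of the 100 highest-scoring peaks, 95 lay in kept sites in PH6h_shXBP1, 99 in the basal list, 100 in PH6h, 98 in PH48h, 99 in sham6h and 100 in sham48h. Over whole lists the share was 36.6% of PH6h_shXBP1 peaks, 62.9% of basal peaks, 7.12% of PH6h, 22.8% of PH48h, 7.03% of sham6h and 34.4% of sham48h peaks. By the rule each kept site has a peak in every unsilenced list, so this share is larger by construction the shorter the list. The median score of a region's highest peak was 134.5 at kept sites and 46.1 at lost sites in PH6h. In the basal list it was 17.4 at kept sites and 12.2 at lost sites, against 14.5 over the whole list. In PH48h it was 25.03 at kept and 16.2 at lost sites. In sham6h the medians were 72.9 at kept and 39.6 at lost sites, and in sham48h they were 29.2 at kept and 15.8 at lost sites. The score ranges of both kinds of site overlapped in every list. The lowest kept site scored 13.8 in PH6h and the highest lost site 246.5.

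**Figure D2:**
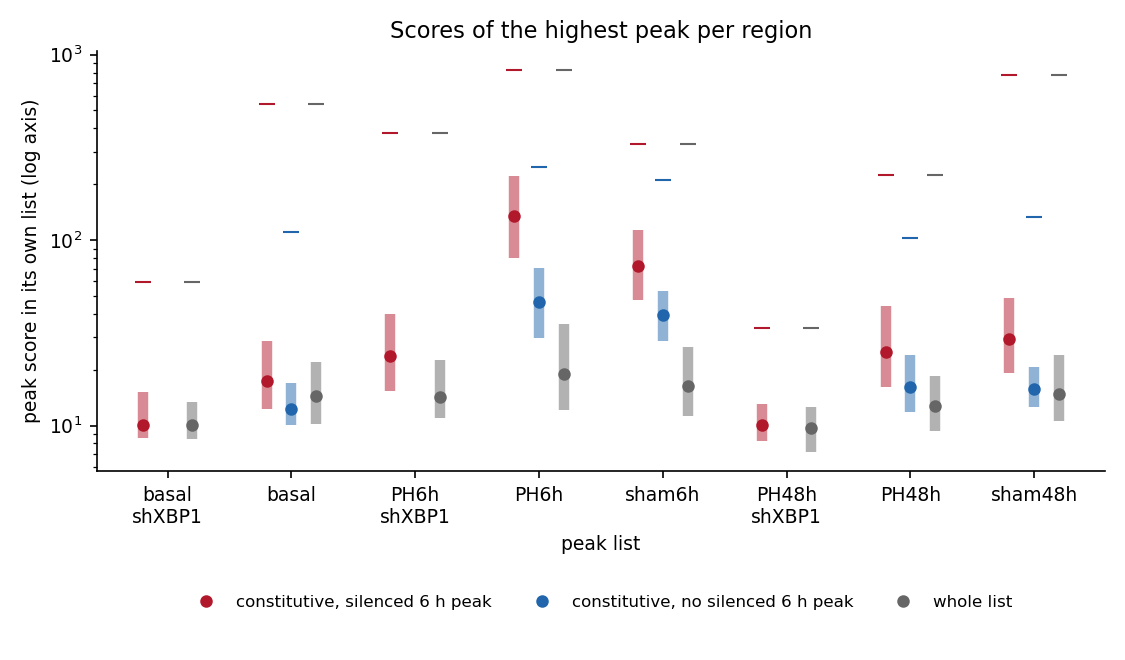
Scores (y axis, log scale) in each of the 8 peak lists (x axis) for kept sites, lost sites (unsilenced lists only) and whole lists; points are medians, thick bars run from the 25th to the 75th percentile and dashes mark the highest value. Kept sites lie above lost sites in all 5 unsilenced lists, with medians of 134.5 at kept and 46.1 at lost sites in PH6h, and their ranges overlap.

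The 5 strongest kept sites were picked by mean rank over the 5 unsilenced lists, so their high ranks there follow from the choice. Among the kept sites they ranked between 1 and 13 in PH6h_shXBP1. Over all peaks of basal_shXBP1 their ranks ran from 1 to 109, and over all peaks of PH48h_shXBP1 from 1 to 41. The site with the lowest mean rank over the 5 unsilenced lists was chr2:34626722-34628400, 1679 bp wide. Its score was 59.5 in basal_shXBP1, 377.1 in PH6h_shXBP1 and 33.7 in PH48h_shXBP1, against 542.1 in basal, 768.2 in PH6h, 211.1 in PH48h, 310.6 in sham6h and 754.2 in sham48h. Its rank among the kept sites lay between 1 and 5 in every one of the 6 lists that defined them. Next came chr10:86166969-86169353, which scored 43.7, 336.5 and 24.7 in the basal, 6 h and 48 h silenced lists. Its unsilenced scores were 502.5 in basal, 828.2 in PH6h, 192.8 in PH48h, 292.0 in sham6h and 773.2 in sham48h. The third, chr2:143990559-143992434, ranked between 1 and 13 in the unsilenced lists and at 11.5 (tied) in PH6h_shXBP1. Its scores in the other silenced lists were 9.08 in basal_shXBP1 and 14.6 in PH48h_shXBP1, both below those of the sites on chromosome 10 and at the top. After it came chr3:95754314-95755491, which ranked 13 in PH6h_shXBP1, and chr11:50138575-50140128, which ranked 4 there.

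Some sites stood higher after silencing than in the unsilenced lists. Among the 5 highest scores of PH6h_shXBP1 were chr6:28429695-28430759, with 300.6, and chr5:142875934-142877172, with 290.5. The site on chromosome 5 ranked 5 in the silenced 6 h list, against 188 in PH6h, 18 in sham6h, 44.5 in PH48h, 84 in sham48h and 91.5 in basal liver. It also held peaks in both other silenced lists, with scores of 20.5 in basal_shXBP1 and 8.60 in PH48h_shXBP1.

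The order of the kept sites was only partly shared between the silenced and the unsilenced 6 h liver. Spearman's rho of the scores over the 1534 sites was 0.74 between PH6h_shXBP1 and PH6h, and it lay between 0.56 and 0.68 between PH6h_shXBP1 and the other unsilenced lists. Between pairs of unsilenced lists it ran from 0.64 (PH48h with sham48h) to 0.80 (PH48h with sham6h). These are descriptions over sites that share libraries and were chosen for a peak in each. The median site moved 169.5 ranks between PH6h_shXBP1 and PH6h, close to the 163.2 ranks between PH6h and sham6h. The move was larger than 169.5 ranks in 8 of the 10 pairs of unsilenced lists. It was largest between PH6h_shXBP1 and PH48h, at 262.5 ranks. A move of more than 500 ranks was seen for 171 sites (11.1%) between PH6h_shXBP1 and PH6h and for 143 sites (9.32%) between PH6h and sham6h. Such moves were seen for 350 sites (22.8%) between PH6h_shXBP1 and PH48h, the most of any pair with PH6h_shXBP1, and for 289 sites (18.8%) between PH6h and the basal list, the most of any unsilenced pair.

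The strongest sites were shared to a like degree at each depth of the ranking. Of the 50 highest-ranked kept sites, PH6h_shXBP1 and PH6h had 33 in common, of the first 100 they had 74, and of the first 200 they had 146. For PH6h and sham6h these numbers were 32, 77 and 152. In all 5 unsilenced lists at once, 54 sites were within the first 100, and 49 of these were also within the first 100 of PH6h_shXBP1. Their ranks after silencing ran from 1 to 170.5. Within the first 200 of all 5 unsilenced lists were 110 sites, of which 97 were within the first 200 after silencing and 1 lay below the median rank.

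That exception was chr3:8923244-8924111. Its rank was 1407 in PH6h_shXBP1, against 115 in basal, 190.5 in PH6h, 131 in PH48h, 73 in sham6h and 95 in sham48h. Its score was 10.9 in PH6h_shXBP1 and 323.6 in PH6h. The largest drop in rank was at chr1:58709004-58710491, which ranked 1423 in PH6h_shXBP1 and between 200 and 540.5 in the 5 unsilenced lists. Its score was 10.1 after silencing and 306.5 in PH6h. Other large drops were at chr11:78349432-78350319 (rank 1512.5 in PH6h_shXBP1, 355 in PH6h), chr16:11175000-11177121 (rank 1416 in PH6h_shXBP1, 312 in PH6h) and chr13:81796409-81797237 (rank 1533 in PH6h_shXBP1, 474 in PH6h). None of these 5 sites had a peak in basal_shXBP1 or PH48h_shXBP1.

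The opposite shift was led by a site on chromosome 18, chr18:90755915-90756803. It ranked 36 in PH6h_shXBP1, with a score of 163.2, and 1494 in PH6h, with a score of 30.7. Its rank was 254 in sham6h, 548.5 in PH48h, 476 in sham48h and 462 in basal liver, so PH6h was the lowest of the 6 lists. At chr12:119427935-119428547 the rank was 190.5 in PH6h_shXBP1 and 1252 in PH6h, against 219.5 in PH48h, 221 in sham6h, 631.5 in sham48h and 144.5 in basal. At chr4:63007581-63008194 it was 390 in PH6h_shXBP1, against 1425 in PH6h and 1283.5 in sham6h, while it lay between 221 and 255 in the basal and both 48 h lists. This last site had the most variable rank of all kept sites over the 5 unsilenced lists. The other sites of this kind were chr16:45970173-45970848 (rank 190.5 in PH6h_shXBP1, 1241 in PH6h) and chr4:116327712-116328206 (rank 541.5 in PH6h_shXBP1, 1467 in PH6h). All were picked for this difference, which is therefore a description.

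**Figure D3:**
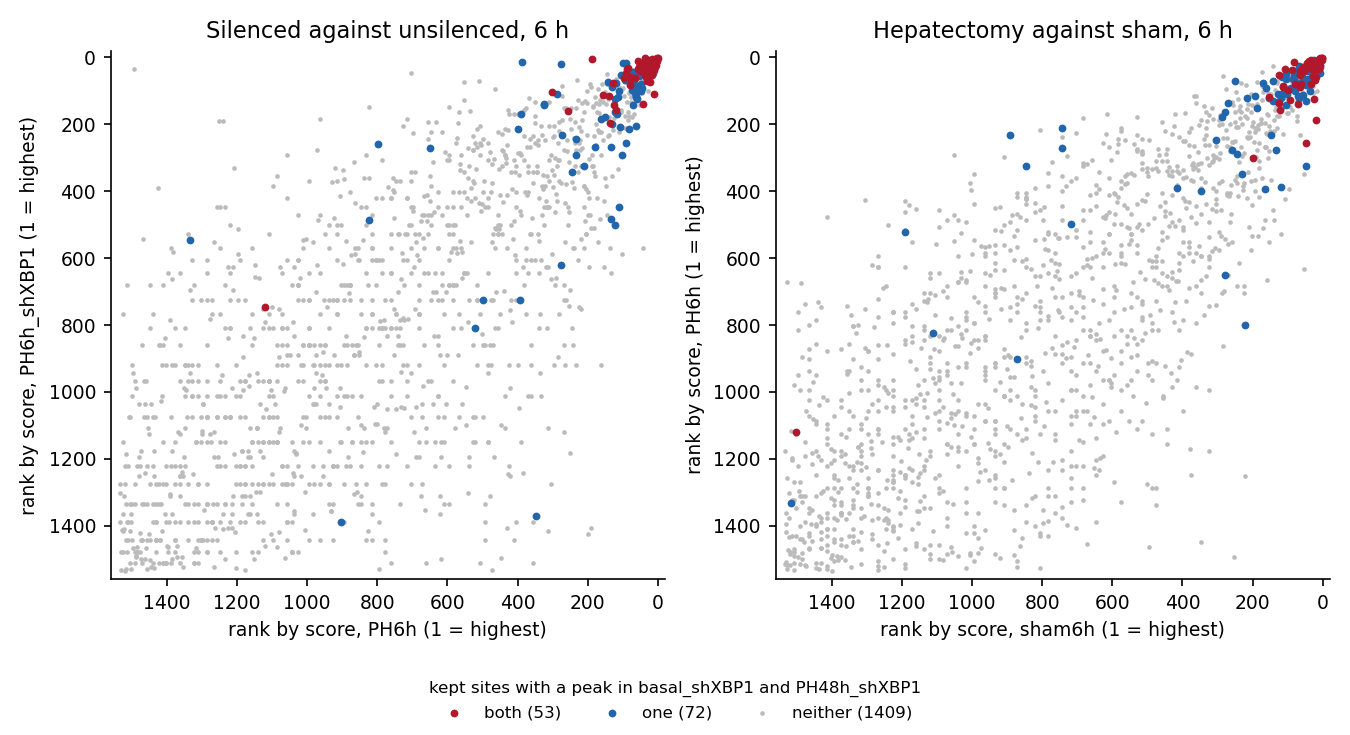
Rank by score of the 1534 kept sites (1 is the highest; each point is a site), PH6h_shXBP1 against PH6h on the left and PH6h against sham6h on the right. Colours mark sites with a peak in both (53), one (72) or neither (1409) of basal_shXBP1 and PH48h_shXBP1; of the 125 sites with further silenced peaks most lie at the highest ranks.

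The edge of the definition was set by weak silenced peaks. Of the kept sites, 110 (7.17%) scored under 10 in PH6h_shXBP1 and 595 (38.8%) under 20. Just inside was chr15:62087150-62087651, with a score of 5.95 in PH6h_shXBP1 and 22.5 in PH6h. Next were chr13:81796409-81797237 (6.17 in PH6h_shXBP1, 196.2 in PH6h) and chr7:4102297-4103217 (6.18 in PH6h_shXBP1, 78.2 in PH6h). They were followed by chr8:72662714-72663506 (6.18 in PH6h_shXBP1, 19.5 in PH6h) and chr7:27963049-27965250 (6.91 in PH6h_shXBP1, 29.0 in PH6h). Weak silenced peaks thus lay on weak and on strong unsilenced ones. Lost sites were instead picked by mean rank in the unsilenced lists, so how near they lay to this edge is unknown. The lost site with the lowest mean rank was chr6:108777961-108778821, which stood at place 131 of the 1859 constitutive regions. It scored 109.9 in basal, 213.1 in PH6h, 100.3 in PH48h, 209.7 in sham6h and 133.6 in sham48h, and it is the only lost site with a peak in basal_shXBP1 (score 9.32). The next lost sites, chr4:95633585-95634719 and chr7:123647313-123648199, stood at places 248 and 315, followed by chr13:34965763-34966534 at 337 and chr11:98812672-98813308 at 360. Lost sites lay a median of 68624 bp from the nearest silenced 6 h peak, and 4 of the 325 had one within 1000 bp.

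The silenced basal and silenced 48 h libraries were not used to define the sites and give a separate reading. In both lists the shortest peak was 53 bp, against 190 bp (PH48h) to 266 bp (sham48h) in the other lists. Calling options are not given, so a peak there may not be comparable with a peak in the other lists. A peak of basal_shXBP1 was present at 114 kept sites (7.43%, 6.17 to 8.86%) and at 1 of 325 lost sites (0.308%, 0.00779 to 1.70%). Over all merged regions it was present at 0.424%. A peak of PH48h_shXBP1 was present at 64 kept sites (4.17%, 3.23 to 5.30%) and at 0 of 325 lost sites, which allows a share of up to 0.923% by a floor of 3 counts and has an exact upper limit of 1.13%. Over all merged regions the share was 0.249%. The intervals of kept and lost sites do not overlap in either list, but they cover counting error within 1 library only, and the difference was not tested. The 2663 regions that held a silenced 6 h peak but were not constitutive had 3 basal_shXBP1 peaks (0.113%) and 1 PH48h_shXBP1 peak (0.0376%). Read from the silenced lists, 157 of the 177 basal_shXBP1 peaks (88.7%, 83.1 to 93.0%) and 79 of the 102 PH48h_shXBP1 peaks (77.5%, 68.1 to 85.1%) lay in kept sites. Of these, 14 basal_shXBP1 peaks and 5 PH48h_shXBP1 peaks lay in the same site, chr17:39979810-39985890. These intervals count each of them as a separate peak. The peaks of PH48h_shXBP1 outside any merged region numbered 16, with scores up to 16.2, and those of basal_shXBP1 numbered 15, with scores up to 20.9.

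This difference between kept and lost sites moves with peak strength. In the highest quartile of constitutive regions by basal score, 105 of 441 kept sites (23.8%, 19.9 to 28.1%) and 1 of 23 lost sites (4.35%, 0.110 to 21.9%) had a basal_shXBP1 peak, and these intervals overlap. In the highest quartile by PH48h score, 60 of 442 kept sites (13.6%, 10.5 to 17.1%) and 0 of 22 lost sites had a PH48h_shXBP1 peak, and the interval of the lost sites reached 15.4%. In the lower 3 quartiles the share was at most 1.23% of kept sites for basal_shXBP1 and at most 0.501% for PH48h_shXBP1, and no lost site had a peak. The difference within a quartile was not tested. The silenced basal and silenced 48 h peaks were also much narrower than the rest. Their median width over kept sites was 125 bp and 95.5 bp, against 416 bp in PH6h_shXBP1.

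Within the kept sites the further silenced peaks gathered at the top of the silenced 6 h list. In its highest decile by score, 85 of 153 sites (55.6%, 47.3 to 63.6%) had a basal_shXBP1 peak and 53 (34.6%, 27.1 to 42.8%) a PH48h_shXBP1 peak. In the second decile 19 of 153 sites had a basal_shXBP1 peak and 6 a PH48h_shXBP1 peak. In the 8 lower deciles no decile had more than 4 such sites in either list.

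**Figure D4:**
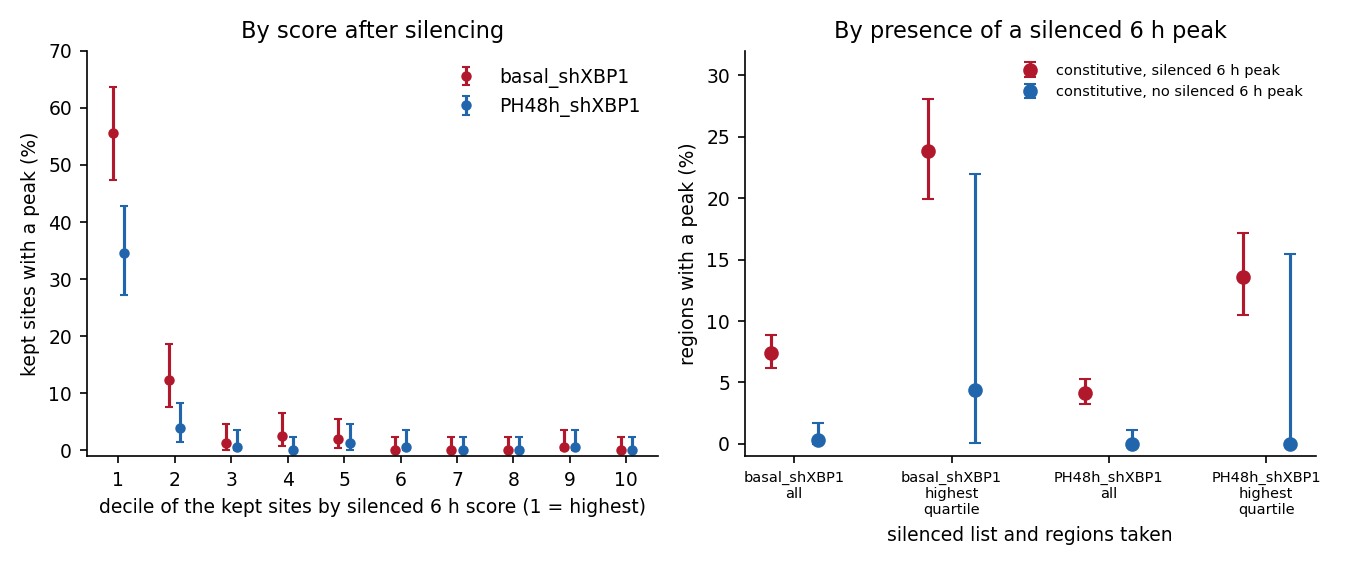
Left, share of kept sites (y axis, %) with a peak in basal_shXBP1 or PH48h_shXBP1, by decile of the silenced 6 h score (x axis, 1 is the highest). Right, share (%) of kept and of lost sites with such a peak, over all constitutive regions and in their highest quartile by the unsilenced score of the same state. Bars are 95% Clopper-Pearson intervals (counting error only), which overlap between kept and lost sites in the highest quartiles and not over all constitutive regions.

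At least one of these lists had a peak at 125 kept sites (8.15%), against 0.48% of all merged regions. Kept sites with a peak in both numbered 53 (3.46%, against 0.192% of all merged regions), a further 61 had one in basal_shXBP1 alone and 11 in PH48h_shXBP1 alone. The other 1409 (91.9%) had neither. The median rank in PH6h_shXBP1 was 35.0 for sites with both, 119.5 for those with basal_shXBP1 alone, 200 for those with PH48h_shXBP1 alone and 828 for those with neither. The merged regions with both had a median width of 1299 bp, and those with neither 839 bp. Many strong sites had neither: of the 250 highest-ranked kept sites of PH6h, 146 lacked both further peaks, 50 had both, 46 had basal_shXBP1 alone and 8 had PH48h_shXBP1 alone. The highest without a further peak by mean rank were chr5:100844701-100846063, ranked between 39 and 70 in the 6 lists, chr9:121627702-121628501, chr7:148725097-148726177, chr14:73002130-73003301 and chr6:38483061-38484401. Conversely, 5 sites below the middle of the mean ranks held a peak in at least 1 of the lists. One of them was chr1:155261182-155261613, which scored 6.98 in basal_shXBP1 and 31.1 in PH6h_shXBP1, against 7.53 in basal and 58.2 in PH6h. The others lay on chromosomes 6, 10, 13 and 17.

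The site on chromosome 17, chr17:39979810-39985890, stood apart from all other kept sites in width and in number of silenced basal peaks. It was the widest, at 6081 bp, and held 14 basal_shXBP1 peaks, 5 PH6h_shXBP1 peaks and 5 PH48h_shXBP1 peaks. In the unsilenced lists it held 3 peaks in basal, 1 in PH6h, 4 in PH48h, 4 in sham6h and 1 in sham48h. No other kept site had more than 3 basal_shXBP1 peaks. Its rank over the 5 unsilenced lists ran from 209 in sham48h to 1503 in sham6h, the second most variable of all. Without it, 113 of 1533 kept sites (7.37%) had a basal_shXBP1 peak and 63 (4.11%) a PH48h_shXBP1 peak. Input DNA was not analysed here, so whether input also gave a signal at this site was not tested. Among the other wide sites, chr5:123585194-123588562 (3369 bp) and chr19:5847761-5850634 (2874 bp) had no basal_shXBP1 or PH48h_shXBP1 peak, like 91.9% of all kept sites.

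At most kept sites the silenced 6 h peak lay inside the PH6h peak, which was usually wider. The rule required both peaks in the region, so this is a description. How often peaks of the other unsilenced lists lay inside those of PH6h was not counted. In 1491 of the 1534 kept sites (97.2%) the highest PH6h_shXBP1 peak was wholly inside the highest PH6h peak, and in 1524 (99.3%) it was narrower. The median ratio of widths to PH6h was 0.542 for PH6h_shXBP1, 0.478 for basal, 0.579 for PH48h, 0.942 for sham6h and 0.633 for sham48h. Silenced 6 h peaks thus had widths close to those of the basal and 48 h livers. The silenced and unsilenced 6 h midpoints were a median of 57.0 bp apart, and 69.1% lay within 100 bp. From PH6h_shXBP1 to the basal list the median distance was 35.0 bp and to sham48h 33.5 bp, with 88.9% of the midpoints to basal and 87.9% of those to sham48h within 100 bp. Between PH6h and the basal list it was 59.5 bp, and between sham6h and PH6h 43.5 bp. The highest peaks at kept sites were widest in PH6h and sham6h, with medians of 798 and 736 bp, against at most 482 bp (sham48h) elsewhere. Midpoints of wide peaks have more room to differ, so these distances do not rank the lists by position. Most sites were simple, and 1324 (86.3%) held exactly 1 peak in each of the 6 lists. Where basal_shXBP1 peaks were present, at least the midpoint of the highest lay inside the PH6h_shXBP1 peak at 98.2% of the sites, and for PH48h_shXBP1 peaks at 98.4%.

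**Figure D5:**
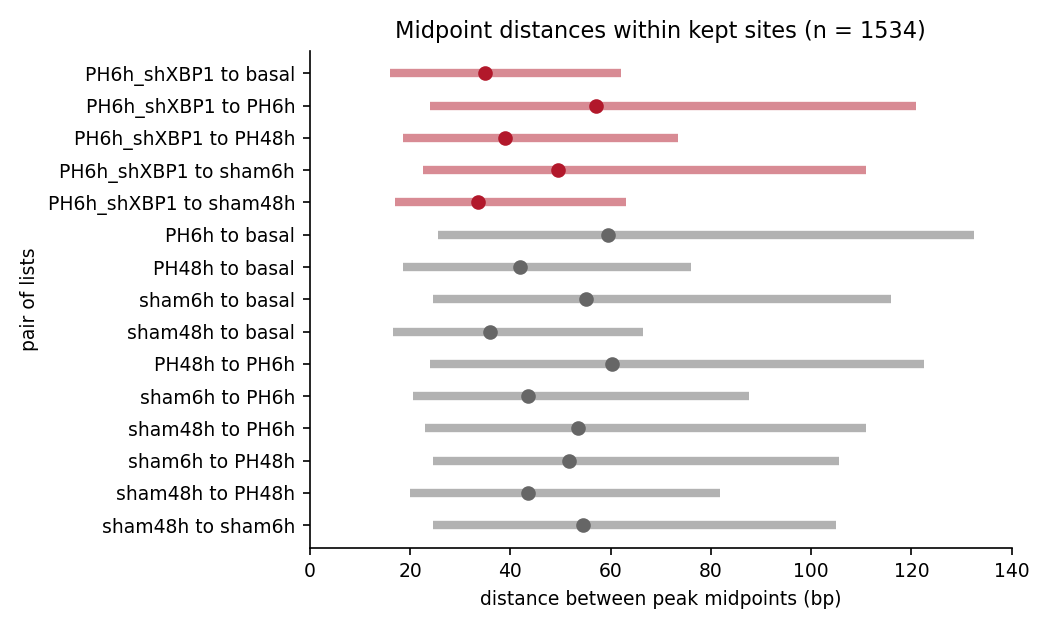
Distance in bp (x axis) between the midpoints of the highest-scoring peaks of a pair of lists (y axis) in the 1534 kept sites; points are medians and bars run from the 25th to the 75th percentile, with pairs that include PH6h_shXBP1 in red. The medians of all pairs lie between 33.5 and 60.2 bp.

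Peaks in kept sites were wider than other peaks of the same list among high-scoring peaks, and the widths were closer among low-scoring ones. In the highest quartile of PH6h_shXBP1 by score the median width was 480 bp in kept sites and 409 bp elsewhere. In that of PH6h it was 811 bp in kept sites and 593 bp elsewhere, and in that of the basal list 466.5 bp in kept sites and 374 bp elsewhere. In that of PH48h it was 506.5 bp in kept sites and 374 bp elsewhere. In the lowest quartile it was 274.5 bp in kept sites and 268 bp elsewhere in PH6h_shXBP1, and 292.5 bp in kept sites and 294 bp elsewhere in sham6h. Scores within a quartile were not matched, and kept sites hold most of the 100 highest in each of these lists. Wide peaks overlap others more easily, so width was not independent of the rule.

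Kept sites lay on 20 chromosomes, and most had no other kept site within 10 kb. Their share of all merged regions on a chromosome ran from 3.99% on X (12 of 301, 2.08 to 6.86%) to 6.76% on chromosome 19 (71 of 1050, 5.32 to 8.45%), and these intervals overlap. Chromosome 11 carried the most, with 130. The median distance from a kept site to the next kept site was 246464 bp, and 104 sites (6.78%, 5.57 to 8.16%) had another within 10 kb. There were 49 runs of 2 sites and 2 runs of 3, with gaps of at most 10 kb, at chr10:80630295-80646051 and chr8:77607630-77617868. Neither run of 3 held a basal_shXBP1 or PH48h_shXBP1 peak, which 91.9% of all kept sites also lacked. Of the lost sites, 21 (6.46%, 4.04 to 9.71%) had a kept site within 10 kb, close to the share among kept sites. Counting any other merged region, kept sites included, 910 kept sites (59.3%, 56.8 to 61.8%) and 196 lost sites (60.3%, 54.8 to 65.7%) had one within 10 kb, and these intervals overlap.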

How the data were processed

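The authors' 8 peak lists (chromosome, start, end, name and score) were used as deposited, 1 per immunoprecipitated library of mouse liver; input DNA was not analysed here. Alignment with Bowtie2 and peak calling with MACS 1.4.2 on mm9 are given by the submitters' processing notes; the calling options and any use of the input in calling are not given in the sources. The score deposited by the authors has no stated scale. Groups were taken from sample titles.

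Regions, overlaps and summaries were computed in Python 3.11.15 (pandas 2.3.3, SciPy 1.17.1, NumPy 2.4.6; figures with matplotlib 3.10.9). Merging and overlap counts were checked with bedtools 2.31.1 and tested on simulated lists. A region's score in a list is that of its highest peak; ranks are among kept sites, ties averaged, with 1 the highest. Shares have 95% Clopper-Pearson intervals, and a count of 0 was read as at most 3. No p-value was computed, as each condition had 1 library. Sites were named by fixed rules: lowest mean rank, highest and lowest silenced scores, largest rank differences, most variable ranks, widest regions, regions with most PH6h peaks, and strong sites without further silenced peaks; the 3 regions with most PH6h peaks, tied with others at 2, are not described. The 5 low-ranked sites with further silenced peaks and the runs of neighbouring sites were chosen after their values were seen. Members, lists and alternatives were chosen with earlier results of these data known. The reference tables at hand are on GRCm38.p6, so no position was converted and the planned counts near genes (cell type markers included), near transcription starts and of motifs were not run.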

Additional observations from a re-analysis of the deposited data

How the results depend on the processing

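No paired analysis was possible because each condition had 1 library. The number of kept sites was 1534, and it was 902 where a silenced peak had to overlap a PH6h peak by at least 50% of both, 806 with the upper 50% of each list by score and 896 with equal numbers of highest-scoring peaks. Both settings on list length take fewer peaks by construction. Other settings gave between 1223 (score of at least 10) and 2275 (basal list not required). The share of kept sites with a basal_shXBP1 peak was 7.43%; it was 4.95% with a silenced score of at least 10, 4.69% with silenced peaks over 100 bp wide, and 23.8%, 1.23%, 0.559% and 0.610% from the highest to the lowest quartile by basal score. For lost sites, 0.308% became 0.0% under both of the first settings, and 4.35%, 0.0%, 0.0% and 0.0% by quartile. For PH48h_shXBP1 the share of kept sites, 4.17%, became 2.28% and 2.15% under these settings, and 13.6%, 0.501%, 0.269% and 0.312% by quartile of PH48h score. Among other merged regions the share was 0.0152% for basal_shXBP1, 0.169% with midpoints within 250 bp of an unsilenced basal peak (1 of 593 regions, those with a basal peak, against 4 of 26240) and 0.00381% with peaks over 100 bp; for PH48h_shXBP1 it was 0.0229%, and 0.00762% with a score of at least 10 or a width over 100 bp. With a score of at least 10, median widths in kept sites were 423.5 bp in PH6h_shXBP1, 378 bp in basal and 451 bp in PH48h. Elsewhere they were 320 bp in PH6h_shXBP1, 280 bp in basal, 437 bp in PH6h, 292 bp in PH48h, 428 bp in sham6h and 354 bp in sham48h, so kept sites stayed wider in each list. The share of kept sites with another within reach was 1.30% at 1 kb and 33.5% at 100 kb. Leaving out the widest site, an alternative chosen after seeing the data, gave 1533 sites and moved no share or distance beyond its interval. Unknown depth limits every absent peak.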
